A study of Mus musculus with 4 samples.

Results

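Imprinted genes are genes expressed mainly from the allele of one parent, and 34 of them, taken by name from a list of mouse symbols, were read out of the 53291 genes and unnamed transcripts of the count table. Of these, 21 are known as paternally expressed, 12 as maternally expressed, and Gnas makes transcripts from either allele. The cells were female germline stem cells (FGSCs), a cultured cell type from the ovary, of C57BL/6 mice, grown for more than 20 passages, with no transgene or mutation named. Spermidine, a natural polyamine studied here for its effect on autophagy, was given for 4 h to the cells of 2 libraries (replicates 1 and 2), and 2 control libraries were taken at the same time. The sources used here give neither the spermidine dose nor the control's vehicle, and do not say whether replicates came from separate cultures. Each p-value therefore measures the spread between 4 libraries, which may be technical.

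Imprints are DNA methylation marks laid down differently in eggs and sperm and kept through the divisions of the embryo, so that one allele of a nearby gene stays silent. In the germline the marks are erased in primordial germ cells and set anew according to the sex of the germ cell. Many imprinted genes act in growth and placental development, with paternally expressed genes often promoting growth and maternally expressed genes often restraining it. The counts are totals per gene, so the parental allele behind any value was not measured.

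Depth differed between the groups. The spermidine libraries held 787600 and 1718944 counts, against 7206176 and 7128901 counts in the control libraries. A single noncoding locus, AY036118, took 29.6% and 30.7% of the spermidine counts and 1.68% and 1.64% of the control counts. Across genes, the log2 of CPM (each count scaled to a common library size) correlated at 0.73 between the spermidine replicates and at 0.97 between the control replicates, a description over genes that are not independent. Genes of the olfactory and vomeronasal receptors, which serve smell in sensory neurons, gave a level of counts at genes with no known role in these cells: 3.18 and 0.175 counts per kilobase of own sequence in the spermidine libraries, against 0.0637 and 0.154 in the controls. Own sequence means bases that no other transcript row of the table covers, because counts fell almost wholly on such bases. The germline markers Ddx4 and Dazl, which define germ cells, had totals of at most 2 counts in any library, over 434 and 432 own bases. Tfap2c had none over 1165 own bases. Nanos3 had none either, but its 12 own bases are too few to read that as absence. Germline markers summed to 178.4 and 369.4 CPM in spermidine libraries and to 292.0 and 277.8 CPM in controls, with 12 and 7 of 16 markers detected in spermidine libraries and 4 and 6 in controls. Tex19.1, a germ cell gene, made up most of the control sum and fell to 41.2 and 17.8 CPM in spermidine libraries, against 283.3 and 256.1 CPM in controls (-3.25 ± 0.63, adjusted p = 0.00749 by edgeR). The other 4 tested germline markers, Dppa3, Pou5f1, Mael and Ifitm3, rose, 3 of them having entered the test only through spermidine. Xist, the noncoding RNA of the inactive X chromosome in female cells, had 114 and 588 counts in spermidine libraries and 5 and 2 in controls. The part of Tex19.1, Xist and the other markers in the values of the imprinted genes was not tested.

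Of the 34 imprinted genes, 11 had enough counts to be tested among 7836 genes, by the quasi-likelihood test of edgeR, with p-values adjusted over all 7836 (Benjamini-Hochberg). Of these, 7 rose with spermidine and 0 fell, while 4 were not called. Over all tested genes the test called 28.8%, with 24.8% higher and 3.99% lower with spermidine. No imprinted gene was lower at an unadjusted p under 0.05 either. Of the 7 called genes 5 (Dio3, Ndn, Peg12, Meg3 and Rian) entered the test only through their spermidine counts, so that they had to differ. The count of calls and the median over the tested genes are therefore descriptions, raised by that entry, and not evidence. Among paternally expressed genes 5 of 7 tested rose, among maternally expressed genes 2 of 3 rose, and Gnas was not called. With that limit, the median log2 fold change of the 11 tested imprinted genes was 4.41, and that of all tested genes was 0.23.

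**Figure D1:**
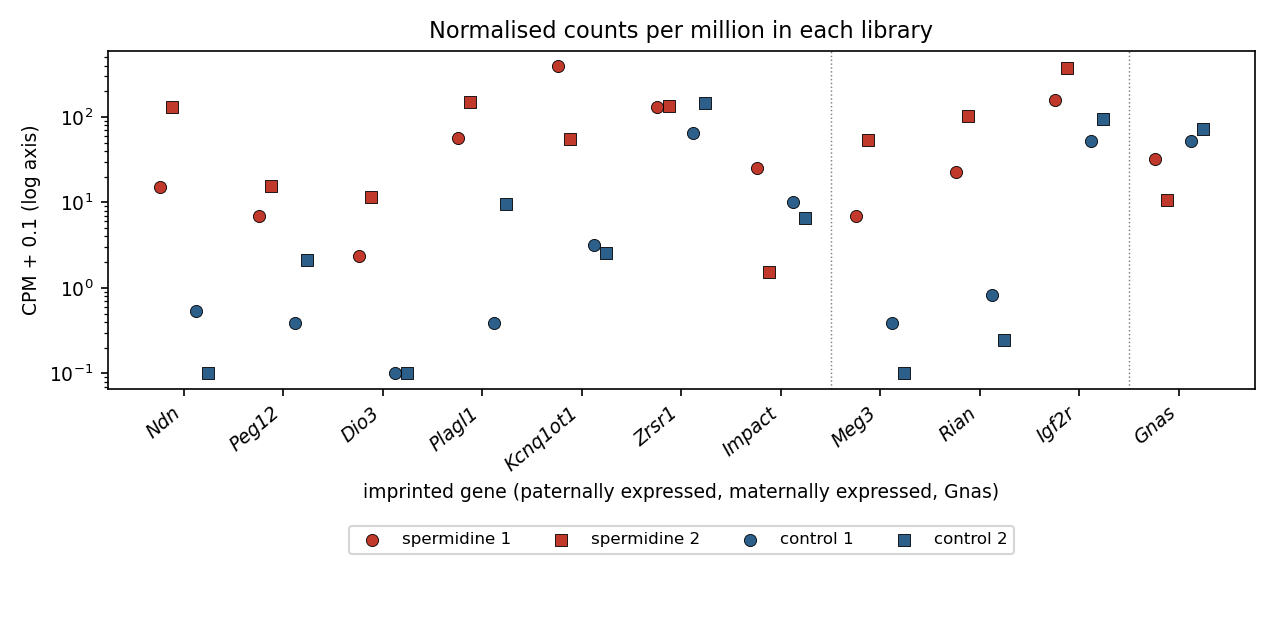
Normalised counts (CPM + 0.1, log axis) of the 11 tested imprinted genes, with 1 point per library, spermidine in red left of control in blue, and dotted lines between paternally expressed genes, maternally expressed genes and Gnas. The spermidine points of 8 genes lie above both control points, those of Gnas lie below, and those of Impact and Zrsr1 overlap the controls.

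For 8 of the 11 genes both spermidine values lay above both control values, a pattern that 36.6% of all tested genes shared. For 1, Gnas, both lay below, as they did for 29.6% of all tested genes. Of the 8 genes, 5 (Dio3, Ndn, Peg12, Meg3 and Rian) entered the test only through spermidine. That entry by itself set their spermidine values above their controls, apart from the scaling. For these 5 genes, here and below, groups that do not overlap, fold changes and adjusted p-values are therefore descriptions and not evidence. Spermidine replicate 2 held the higher value of the pair in 8 genes and in 6 of the 7 called ones, with Kcnq1ot1 as the exception.

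Paternally expressed genes are taken first. Ndn, which encodes necdin, a growth-suppressing protein of the MAGE family, is an intronless gene of the Snrpn-Ube3a domain (chr7:62348277-62349928, GRCm38, as are all positions). Its promoter bases, 250 bases up to the RefSeq start on the plus strand in GRCm38.p6, are shown because Ndn had the most spermidine counts of the members in its domain, and capitals mark CG, the dinucleotide that carries methylation.
Ndn, chr7:62348027-62348276: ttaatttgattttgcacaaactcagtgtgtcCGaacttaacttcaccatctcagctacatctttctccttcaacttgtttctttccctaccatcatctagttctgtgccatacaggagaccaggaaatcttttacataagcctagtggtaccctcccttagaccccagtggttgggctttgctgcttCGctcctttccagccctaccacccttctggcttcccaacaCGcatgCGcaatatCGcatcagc
Ndn had 14.9 and 130.3 CPM in the spermidine libraries, against 0.435 and 0 CPM in the controls. The counts behind these were 13 and 183 in spermidine libraries and 3 and 0 in controls. The 2 groups did not overlap, and nearly all of the signal stood in spermidine replicate 2. Ndn rose by 8.24 ± 1.38 on the log2 scale (SE, n = 2 libraries per group, edgeR adjusted p = 0.00492), a model value that rests on 3 control counts. Ndn entered the test only through spermidine, so this direction was set by that entry and the p-value is not evidence. The pooled ratio of the counts was 395.9, with a 95% exact interval of 133.5 to 1936 that covers counting error only. Without control replicate 1 the call was lost (10.85, adjusted p = 0.0750), and without spermidine replicate 2 the change was 6.00.

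Peg12, an intronless neighbour of Ndn (chr7:62461871-62464510) that encodes a protein of the FRAT family of Wnt signalling, had 6.86 and 15.7 CPM in spermidine libraries and 0.290 and 2.03 CPM in controls. Its counts were 6 and 22 in spermidine libraries and 2 and 14 in controls. Peg12 rose by 3.32 ± 1.03 (adjusted p = 0.0399 by edgeR, n = 2 per group), and the groups did not overlap. Peg12 too entered the test only through spermidine, which set this direction. Its adjusted p was the highest of the 7, and Peg12 passed the threshold in only 1 of its 10 alternative fits, the RLE scaling, with adjusted p up to 0.344. Each library left out in turn took the call away, with adjusted p of 0.0712 and 0.0666 when spermidine replicate 1 or 2 was left out, and of 0.344 and 0.0525 when control replicate 1 or 2 was. The other members of the domain held few counts. Magel2, a MAGE gene with 4662 own bases, had 0 counts in all 4 libraries, where the mean receptor-gene level would give 14.8 in spermidine replicate 1. In that library 21.5% of 339 receptor genes with at least 1000 own bases also had none. Those genes held 1850 counts together and were not matched to the own bases of Magel2, so that share is not the one for a gene of its size. Mkrn3, a zinc finger gene tied to the timing of puberty, had 2 and 1 counts in spermidine libraries and 1 and 5 in controls.

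Snrpn, the gene at the imprinting centre of that domain, encodes a spliceosome protein and had 0 and 0 counts in spermidine libraries against 1 and 0 in controls, over 410 own bases. Ube3a, a ubiquitin ligase expressed from the maternal allele in neurons, had 1 and 0 counts in spermidine libraries and 1 and 0 in controls, over 155 own bases. The table could not show either gene's level well, since most of their sequence is shared between transcript rows. Of 31 features between the outermost members of the domain, 11 and 5 held a count in spermidine libraries and 6 and 3 in controls.

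Dio3, at the far end of the Dlk1-Dio3 domain (chr12:110279230-110281097), encodes the deiodinase that inactivates thyroid hormone. Dio3 had 2 and 16 counts in the spermidine libraries and 0 and 0 in the controls, which is 2.29 and 11.4 CPM in spermidine libraries. Dio3 rose (adjusted p = 0.00908 by edgeR, n = 2 per group), and its pooled spermidine level was 36.4-fold that of 3 counts over the 2 control libraries. This ratio takes the spermidine counts as exact and rests mostly on the 16 counts of replicate 2, so it is no lower bound for replicate 1. The call was lost without spermidine replicate 1 (adjusted p = 0.0836) and without control replicate 1 (adjusted p = 0.0750). The antisense neighbour Dio3os, on 1259 own bases, had 0 and 16 counts in spermidine libraries and 1 and 0 in controls. In both genes most of the counts came from spermidine replicate 2.

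Meg3 and Rian, 2 maternally expressed long noncoding RNAs of the same domain, are described here beside Dio3. All 3 genes entered the test only through spermidine, so their shared direction was set by that entry and is not evidence. Their promoter bases, cut and marked in the same way and all on the plus strand, are shown because the called genes lie in one domain.
Meg3, chr12:109540746-109540995: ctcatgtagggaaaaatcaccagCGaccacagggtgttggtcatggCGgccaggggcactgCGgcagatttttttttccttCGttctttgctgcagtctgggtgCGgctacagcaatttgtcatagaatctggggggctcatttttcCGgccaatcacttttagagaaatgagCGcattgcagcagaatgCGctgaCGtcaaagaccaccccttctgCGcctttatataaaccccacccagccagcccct
Rian, chr12:109603695-109603944: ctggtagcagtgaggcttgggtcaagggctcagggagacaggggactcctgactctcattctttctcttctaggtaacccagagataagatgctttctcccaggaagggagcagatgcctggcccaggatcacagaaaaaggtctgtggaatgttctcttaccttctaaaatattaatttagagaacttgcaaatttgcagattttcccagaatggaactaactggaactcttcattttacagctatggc
Dio3, chr12:110278980-110279229: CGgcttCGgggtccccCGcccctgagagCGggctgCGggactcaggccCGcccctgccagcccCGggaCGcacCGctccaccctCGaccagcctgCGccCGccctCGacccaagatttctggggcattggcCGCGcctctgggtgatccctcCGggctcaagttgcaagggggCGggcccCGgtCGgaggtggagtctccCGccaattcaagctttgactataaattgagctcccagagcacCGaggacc
The printed windows held 10 CG before Meg3, 0 before Rian, 21 before Dio3 and 5 before Ndn, against a median of 6 over 32851 RefSeq promoters, of which 7.87% held none. A second RefSeq promoter of Meg3, at chr12:109545148-109545397, held 0 CG. The motif TGCCGC, which ZFP57 reads when methylated, was searched on both strands and occurred 1 time in the window printed for Meg3 and not in that second window or before Rian, Dio3 or Ndn, and 8.68% of all promoters of this length hold it. A match is a description of letters and not a binding site.

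Meg3 is a growth-restraining noncoding RNA whose promoter region is a methylation-controlled switch of the domain, and it spans chr12:109540996-109571729. Meg3 had 6 and 75 counts in spermidine libraries and 2 and 0 in controls, which is 6.86 and 53.4 CPM in spermidine libraries and 0.290 and 0 CPM in controls. Meg3 rose by 7.51 ± 1.41 on the log2 scale (adjusted p = 0.00665 by edgeR), resting on 2 control counts. Its pooled ratio was 245.4 (95% exact interval 65.8 to 2061, counting error only).

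Rian (chr12:109603945-109661716), which hosts clusters of small nucleolar RNAs, had 20 and 145 counts in spermidine libraries and 5 and 1 in controls. This is 22.9 and 103.2 CPM in spermidine libraries against 0.725 and 0.145 CPM in controls. Rian rose by 7.13 ± 1.11 (adjusted p = 0.00457 by edgeR, n = 2 per group). In both genes the groups did not overlap, and spermidine replicate 2 was the highest library. Leaving out control replicate 1 took away both calls (9.62 for Meg3 and 8.48 for Rian, adjusted p = 0.0750 each), and leaving out spermidine replicate 2 gave 5.40 and 5.69.

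Members between them were sparse. Dlk1, a paternally expressed Notch-like protein, had 0 counts in every library over 473 own bases. Rtl1, a paternally expressed retrotransposon-derived gene of the placenta, had 6 and 1 counts in spermidine libraries and 2 and 1 in controls over 3516 own bases. Mirg, a maternally expressed host of microRNAs, had 4 and 2 counts in spermidine libraries and 0 and 0 in controls. Of 87 features in the span, 29 and 11 held a count in spermidine libraries and 4 and 4 in controls, and among its 68 microRNAs and small nucleolar RNAs 15 and 3 did in spermidine libraries and 0 and 1 in controls. Of 1469 receptor genes, 59.3% and 8.44% held a count in spermidine libraries and 1.70% and 4.29% in controls, and the part of that background in the span was not tested.

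Plagl1 (also Zac1) encodes a zinc finger transcription factor that restrains the cell cycle and sits at chr10:13090832-13131694. Its promoter is shown because Plagl1 had the most spermidine counts of the called protein-coding members, with CG in capitals.
Plagl1, chr10:13090582-13090831: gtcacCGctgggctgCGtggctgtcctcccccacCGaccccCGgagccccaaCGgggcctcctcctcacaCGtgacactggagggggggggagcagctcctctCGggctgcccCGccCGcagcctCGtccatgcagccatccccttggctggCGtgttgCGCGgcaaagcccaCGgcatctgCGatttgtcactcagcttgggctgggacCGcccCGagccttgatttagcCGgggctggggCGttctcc
The window held 19 CG and 1 TGCCGC. Plagl1 had 49 and 209 counts in spermidine libraries and 2 and 65 in controls, which is 56.0 and 148.8 CPM in spermidine libraries and 0.290 and 9.41 CPM in controls. As a ratio, though not in CPM, the 2 controls thus differed far more than the 2 spermidine libraries, and the groups did not overlap. Plagl1 rose by 4.41 ± 1.08 (adjusted p = 0.0148 by edgeR). Without control replicate 2, the higher control, the change was 8.29 (adjusted p = 0.0153). The call was lost without spermidine replicate 1 (4.93, adjusted p = 0.146) and without control replicate 1 (3.51, adjusted p = 0.102).

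Kcnq1ot1, a paternally expressed noncoding RNA that runs antisense through Kcnq1 and silences neighbouring genes, is at chr7:143213111-143296547 and had the most own bases of the members, 83312. Kcnq1ot1 had 344 and 78 counts in spermidine libraries and 21 and 17 in controls, which is 393.4 and 55.5 CPM in spermidine libraries and 3.04 and 2.46 CPM in controls. The groups did not overlap, and here spermidine replicate 1 was the highest library. Kcnq1ot1 rose by 6.31 ± 1.04 (adjusted p = 0.00597 by edgeR), with 4.32 without spermidine replicate 1 and 7.20 without spermidine replicate 2, and the call was lost without control replicate 1 (adjusted p = 0.0750). Kcnq1 itself had 2 and 0 counts in spermidine libraries and none in controls on 434 own bases, and with no strand setting stated, reads from its unspliced RNA and from Kcnq1ot1 cannot be told apart.

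The receptor-gene level, scaled to each gene's own bases, moved with some of these values. For Kcnq1ot1 it came to 264.6 and 14.6 counts in the spermidine libraries and 5.30 and 12.8 in the controls, beside observed counts of 344 and 78, and 21 and 17. In spermidine replicate 1 it came to 16.1 counts for Plagl1, 11.4 for Rian, 8.39 for Peg12, 5.93 for Dio3, 5.25 for Ndn and 4.75 for Meg3, beside 49, 20, 6, 2, 13 and 6 observed. Single receptor genes with at least 1000 own bases spread widely around that mean, with a 95th percentile of 9.19 counts per kilobase in spermidine replicate 1 and 0.993 in replicate 2. In replicate 1 Plagl1, at 9.65 counts per kilobase of own bases, lay above that percentile, while Ndn (7.87), Rian (5.58), Kcnq1ot1 (4.13), Meg3 (4.01), Peg12 (2.27) and Dio3 (1.07) lay below it. In replicate 2 Kcnq1ot1, at 0.936, also lay below it, and the other 6 called genes lay above it, from 8.33 for Peg12 to 110.8 for Ndn. In spermidine replicate 2 it was 0.889 for Plagl1 and below that for the other 5, beside observed counts of 16 to 209. With the receptor level subtracted in each library, Kcnq1ot1, Ndn, Plagl1 and Rian stayed called at 5.87, 8.35, 4.51 and 7.40, Igf2r became called at 2.03, and Dio3, Meg3 and Peg12 no longer entered the test.

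**Figure D2:**
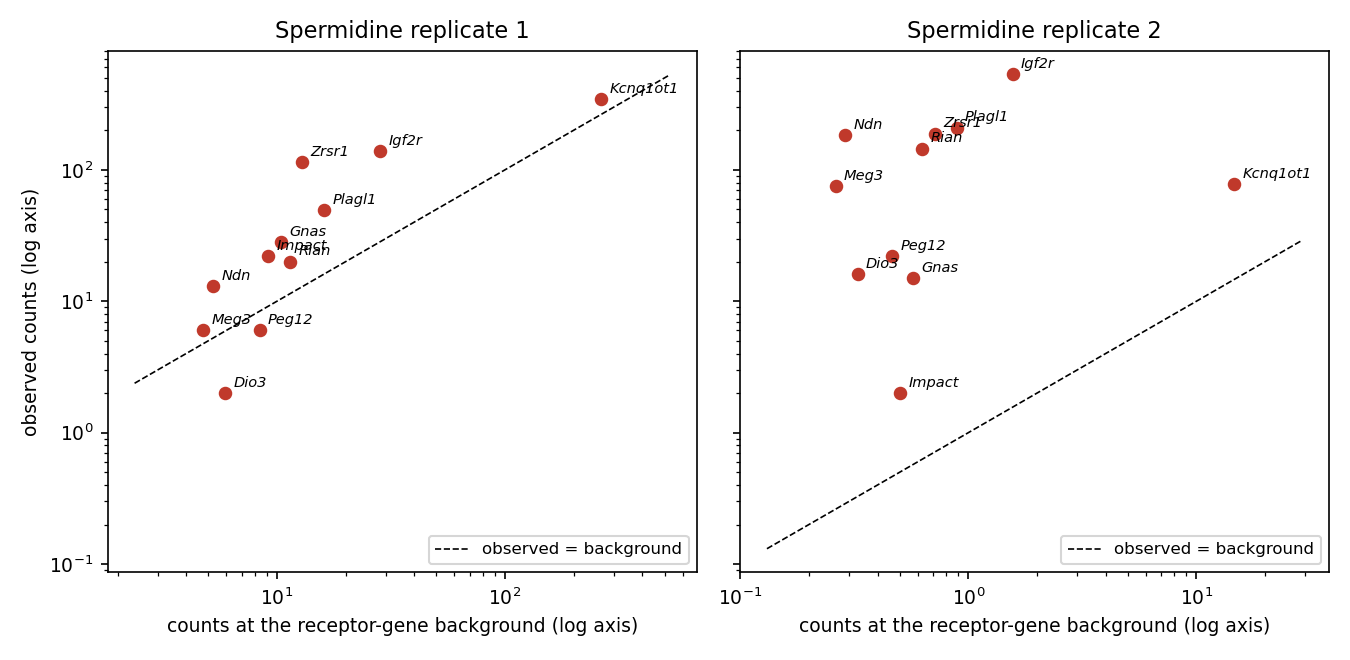
Observed counts of the 11 tested imprinted genes (vertical, log axis) against the counts expected at the receptor-gene level for their own bases (horizontal, log axis), in spermidine replicate 1 (left) and replicate 2 (right). In replicate 1 Kcnq1ot1, Meg3, Peg12 and Dio3 lie close to or under the dashed line of equality, and in replicate 2 every gene lies above it.

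Impact, a paternally expressed regulator of the amino acid stress response on chromosome 18, had 25.2 and 1.42 CPM in spermidine libraries and 9.999 and 6.51 CPM in controls. Its log2 fold change was 0.49 ± 1.06 (adjusted p = 0.764 by edgeR), and the groups overlapped. The value was -2.52 without spermidine replicate 1 and -0.10 with no filter on low counts, so that its sign was not settled. Zrsr1, a paternally expressed splicing factor gene that lies within Commd1 (chr11:22972005-22976496), had 130.4 and 133.8 CPM in spermidine libraries and 64.9 and 143.8 CPM in controls. Its log2 fold change was 0.34 ± 0.57 (adjusted p = 0.692), the spermidine values lay between the controls, and the value was -0.049 without control replicate 1 and -0.13 with no filter. The counts of Impact were 22 and 2 in spermidine libraries and 69 and 45 in controls, and those of Zrsr1 were 114 and 188 in spermidine libraries and 448 and 994 in controls.

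Igf2r, a maternally expressed receptor that clears insulin-like growth factor 2 and delivers lysosomal enzymes, overlaps the noncoding RNA Airn at chr17:12682406-12769706. Igf2r had 158.9 and 378.0 CPM in spermidine libraries and 51.7 and 93.9 CPM in controls, with 139 and 531 counts in spermidine libraries and 357 and 649 in controls. The groups did not overlap, and the log2 fold change was 1.89 ± 0.62 (adjusted p = 0.0505 by edgeR), just outside the threshold. Igf2r passed in 5 of its 13 alternative fits, with adjusted p from 0.0186 to 0.421, and leaving out a library gave 1.20 to 2.38. Airn, which silences the paternal Igf2r allele, had 2 and 2 counts in spermidine libraries and 0 and 0 in controls over 1012 own bases.

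Gnas, a locus of several overlapping transcripts that encode the stimulatory G protein alpha subunit and other proteins (chr2:174284320-174346744), was the one tested member lower with spermidine in both libraries. Gnas had 32.0 and 10.7 CPM in spermidine libraries and 51.7 and 71.8 CPM in controls. The log2 fold change was -1.61 ± 0.72 (adjusted p = 0.130), which did not pass the test, and leaving out a library gave -2.53 to -0.88. The unadjusted p of Gnas by edgeR was 0.0192 with no filter on low counts and 0.0420 with the receptor level subtracted. In the other alternatives on all libraries it ran from 0.0579 to 0.423 by edgeR or DESeq2, and none called Gnas. Nearly all counts, 25 and 15 in spermidine libraries and 357 and 496 in controls, lay on 1697 bases at chr2:174328132-174329828, which only 1 of its transcript rows covers. The values stand for that stretch and not for the whole locus.

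**Figure D3:**
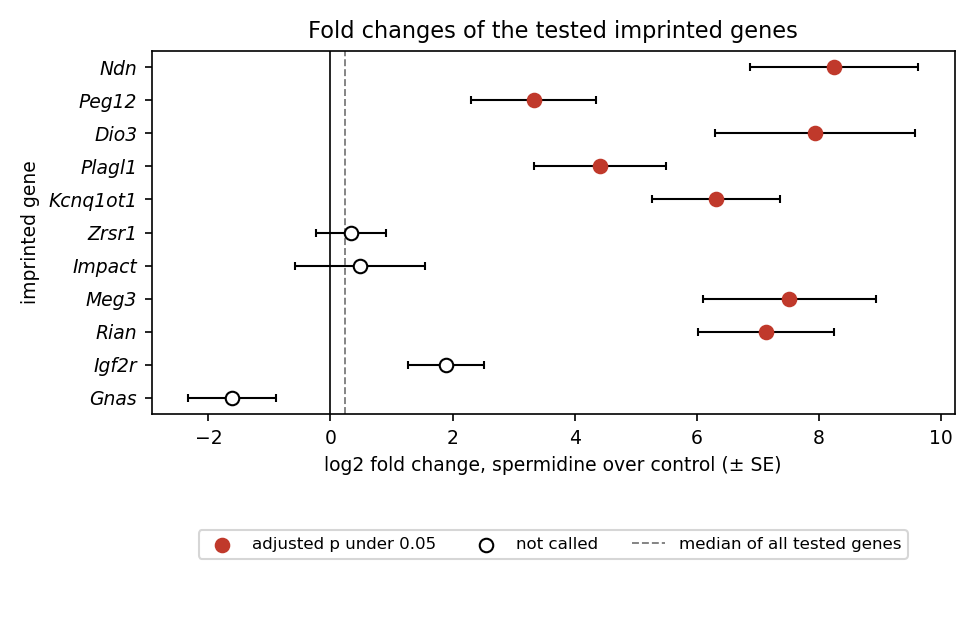
Log2 fold change with its SE (spermidine over control, horizontal) of the 11 tested imprinted genes, paternally expressed at the top and Gnas at the bottom, with filled red points for adjusted p under 0.05, open points for genes not called and a dashed line at 0.23, the median of all tested genes. The called genes range from 3.32 (Peg12) to 8.24 (Ndn), and the value of Dio3 is a model estimate against controls at 0 and is no bound.

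The other 23 members did not enter the test, and none had more than 12 counts in any library. Of them, 12 had fewer than 300 own bases and 11 had more, and 9 of all members had 0 counts in every library. H19, the maternally expressed growth-restraining noncoding RNA, had 4 own bases, Cdkn1c, a maternally expressed cell cycle inhibitor, had 5, and Peg3 and Peg10 had none, so their zeros carry no information on expression. Nnat had 5 own bases, Usp29 178 and Grb10 69, with 0 counts in all libraries. Igf2, the paternally expressed growth factor, had 0 and 0 counts in spermidine libraries and 0 and 12 in controls over 1184 own bases. Mest, a paternally expressed hydrolase, had 0 and 0 counts in spermidine libraries and 1 and 0 in controls.

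Zim1, a maternally expressed zinc finger gene, had 5 and 0 counts in spermidine libraries and 0 and 0 in controls over 1580 own bases, where the receptor level came to 5.02 in spermidine replicate 1. Sgce, a paternally expressed sarcoglycan, had 2 and 0 counts in spermidine libraries and 0 and 0 in controls. Zdbf2, a paternally expressed zinc finger gene, had 4 and 0 counts in spermidine libraries and 0 and 0 in controls over 90 own bases. Phlda2, a maternally expressed restrainer of placental growth, had 1 and 0 counts in spermidine libraries and none in controls. Asb4 had 0 and 1 counts in spermidine libraries and none in controls, while Slc22a18 had none in spermidine libraries and 0 and 1 in controls.

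**Figure D4:**
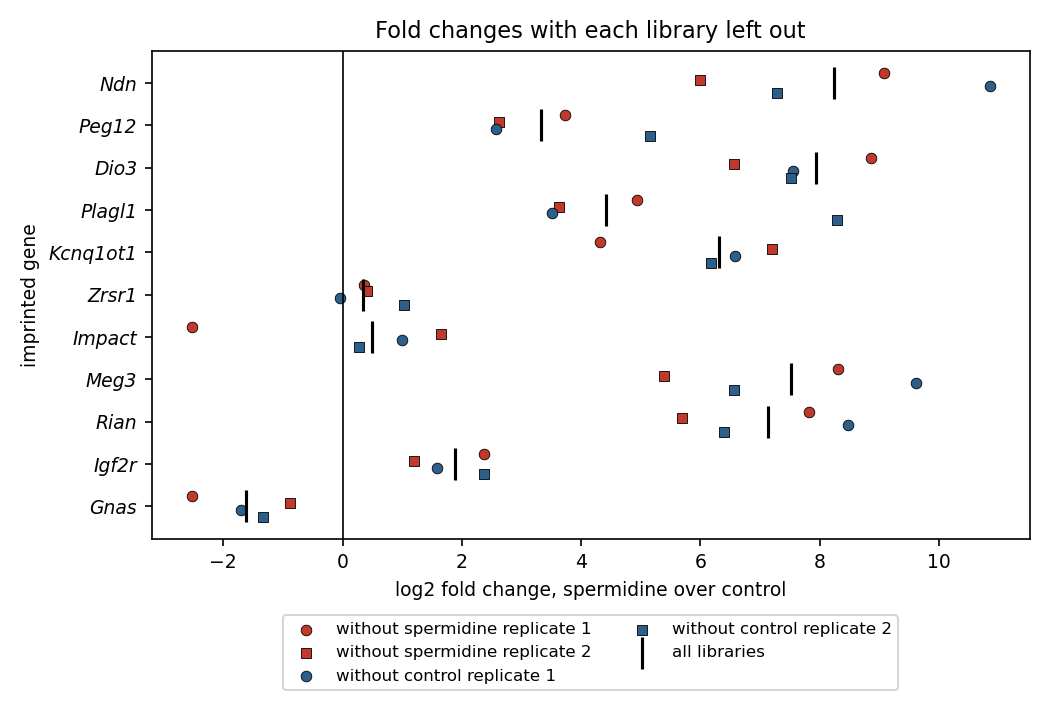
Log2 fold change (spermidine over control) of the 11 tested imprinted genes with each library left out in turn (red circles and squares without spermidine replicate 1 and 2, blue circles and squares without control replicate 1 and 2), and a black bar for all libraries. All 7 called genes stay above 0 in every fit, while Impact reaches -2.52 without spermidine replicate 1 and Zrsr1 reaches -0.049 without control replicate 1.

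The number of called members was 4 or 6 when spermidine replicate 1 or 2 was left out, and 0 or 6 when control replicate 1 or 2 was. Without control replicate 1 no gene of the whole table was called, although 6 members and 1926 genes had an unadjusted p under 0.05. In DESeq2 the number called was also 7, but not the same genes: Peg12 was not called (adjusted p = 0.0861 by DESeq2) and Igf2r was (adjusted p = 0.0200).

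A wider list of 45 further imprinted genes, 43 of them in the table, had 15 tested genes, of which 8 rose and 0 fell, with a median log2 fold change of 3.39, where 24.8% of all tested genes were higher. Of these 8 genes, 6 entered the test only through their spermidine counts and had to be higher, so neither the count nor the median is evidence. The genes named below with 0 counts in the controls are among the 6, and their rise is not evidence either. Nap1l5, a paternally expressed histone chaperone-like gene, had 88.0 and 1273 CPM in spermidine libraries and 1.01 and 2.60 CPM in controls, a rise of 8.54 ± 1.40 (adjusted p = 0.00591 by edgeR). Sfmbt2, a Polycomb group gene of the placenta, had 47 and 7 counts in spermidine libraries (53.7 and 4.98 CPM) and 0 and 0 in controls. Its receptor level was 29.4 counts in spermidine replicate 1. The pooled spermidine level of Sfmbt2 was 109.1-fold that of 3 counts over the 2 control libraries. This ratio takes the spermidine counts as exact and is no lower bound for either library. Th, which encodes tyrosine hydroxylase, had 15 and 25 counts in spermidine libraries and none in controls, and its ratio computed in the same way was 80.8. Slc38a4, an amino acid transporter, had 12 and 8 counts in spermidine libraries, and Pon3, a lactonase, had 3 and 20. Slc22a3, an organic cation transporter, had 15 and 9 counts there, beside a receptor level of 11.1 in spermidine replicate 1. These genes were likewise at 0 in the controls, and the same ratio was 40.4 for Slc38a4, 48.5 for Slc22a3 and 46.5 for Pon3.

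Of 25 genes that set or keep imprints, 5 were tested and 1 rose, where 24.8% of all tested genes were higher. That gene entered the test only through spermidine and had to be higher, so its rise is not evidence. Dppa3, a protein of the egg and early embryo that guards maternal methylation, had 10.3 and 187.2 CPM in spermidine libraries and 0.290 and 0.434 CPM in controls, a rise of 8.02 ± 1.38 (adjusted p = 0.00564 by edgeR). Dnmt1, the methyltransferase that copies methylation at replication, had 4 and 4 counts in spermidine libraries and 7 and 9 in controls and was not called (1.59 ± 0.82, adjusted p = 0.182). Trim28, the corepressor that ZFP57 recruits to imprints, had 304.2 and 1248 CPM in spermidine libraries and 1647 and 1195 CPM in controls and was not called (-0.87 ± 0.71, adjusted p = 0.395). Zfp57 had 4 and 2 counts in spermidine libraries and none in controls over 178 own bases, and Uhrf1 and Ctcf had 0 and 1 own bases.

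Igf2 and Igf2r act in the insulin-like growth factor pathway, of which 9 of 16 genes were tested. Of these, 6 rose and 0 were called lower, where 24.8% of all tested genes were higher and 3.99% lower. Igfbp4 had 583.2 and 1023 CPM in spermidine libraries and 2078 and 1933 CPM in controls. Igfbp4 was lower but not called (-1.32 ± 0.58, adjusted p = 0.123 by edgeR). Igfbp5, a binding protein that holds the factors outside the cell, had 189.8 and 770.9 CPM in spermidine libraries and 1.01 and 1.45 CPM in controls, a rise of 8.58 ± 0.99 (adjusted p = 0.00286 by edgeR). Irs1, an adaptor below the receptor, had 70.9 and 227.8 CPM in spermidine libraries and 1.16 and 3.47 CPM in controls, a rise of 6.01 ± 0.89 (adjusted p = 0.00463). Igfbp6 rose by 4.21, Igf2bp2 by 2.89 and Igf2bp1 by 3.46 (adjusted p = 0.00765, 0.0119 and 0.0493 by edgeR). Igf2bp1 had 20 and 6 counts in spermidine libraries and 3 and 12 in controls, beside a receptor level of 26.3 in spermidine replicate 1. Igfbp2 was at 0 in controls, and its pooled spermidine level was 60.6-fold that of 3 counts over the 2 control libraries, which is no lower bound. Of the 6 genes that rose, 3 (Igfbp5, Igfbp2 and Igf2bp1) entered the test only through spermidine and had to be higher. The count, and the fold changes and adjusted p-values of these 3 genes, are therefore not evidence.

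Summed markers of other ovarian cells and of blood differed between the groups. Stroma markers, 12 genes, summed to 2126 and 11197 CPM in spermidine libraries and 77.2 and 181.3 CPM in controls, with 10 and 10 detected in spermidine libraries, 11 and 8 in controls, and Postn at 0. Granulosa and theca markers summed to 2335 and 7024 CPM in spermidine libraries and 162.0 and 134.4 CPM in controls, with Amh at 0. Oocyte markers summed to 161.2 and 2401 CPM in spermidine libraries and 1.45 and 2.75 CPM in controls, with Zp2, Nlrp5 and Nobox at 0. Surface epithelium markers summed to 123.5 and 261.9 CPM in spermidine libraries and 0.435 and 2.75 CPM in controls. Endothelial markers summed to 106.3 and 117.5 CPM in spermidine libraries and 1.45 and 0.579 CPM in controls, with Pecam1, Cdh5, Tek and Emcn at 0. Blood markers summed to 476.8 and 926.1 CPM in spermidine libraries and 2073 and 1608 CPM in controls, with Csf1r, Adgre1 and Spi1 at 0. Of 7 tested blood markers, 2 were called higher, 2 lower and 3 not, with a median log2 fold change of 1.09. The lower sum therefore does not stand for each blood marker. At least 300 own bases were held by 10 of 12 stroma, 9 of 12 granulosa and theca and 7 of 10 oocyte markers. For surface epithelium, endothelial and blood markers these numbers were 6 of 8, 3 of 8 and 11 of 14. A zero of a marker with few own bases cannot be read as absence. The part of these markers in the imprinted genes' values was not tested, and in these bulk libraries fewer cells of a type and less RNA per cell cannot be told apart.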

How the data were processed

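Libraries of mRNA from 4 samples (2 spermidine, 2 control) were sequenced as Illumina read pairs, per the labels' protocols. These name 2 library kits, VAHTS mRNA-seq and NEBNext Ultra Directional, the latter strand-specific. The kits were not assigned to libraries here, so the part of the kit in the differences between groups was not tested. The authors deposited raw counts per transcript, whole numbers with no normalisation. HISAT2, DESeq2 and mm9 are named in the submitters' processing notes, and the sources used here do not name the counting program. Of 106519 rows, 80.8% matched a RefSeq gene, and rows were summed per gene. The positions of 88.5% of the matched rows fall in their gene's GRCm38 span, so positions are printed as GRCm38. Rows with no base of their own, on either strand, held at most 0.00140% of any library's counts, so genes were counted almost only on their own bases, and a gene with few own bases cannot be read as silent.

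Genes passing edgeR's filterByExpr (minimum count 10, minimum total 15) were normalised with TMM factors. The quasi-likelihood test came from edgeR 4.0.16 (R 4.3.3) without its legacy option, in a model of group alone that leaves 2 residual degrees of freedom. Genes were called at an adjusted p under 0.05 (Benjamini-Hochberg over all genes). CPM values use the scaled totals. The test was checked on counts simulated with the same dispersion for every gene and no receptor-gene background. That check therefore gives no error rate for these data. A count of 0 allows up to 3 counts, which is 3.81 and 1.75 CPM of the spermidine totals and 0.416 and 0.421 CPM of the control totals, for counting error only. Library totals ran from 787600 to 7206176. DESeq2 1.42.0 was among 13 alternatives, and 1 of them, edgeR's legacy test, was added after the data were seen. The replicates were not duplicates (chi-square per degree of freedom 32.2 and 40.8). Imprinted genes and the gene lists were chosen with earlier results of these data known. Every member is named, with up to 6 called genes of each other list and 5 regulators that maintain imprints. Promoters come from RefSeq (GRCm38.p6), with an entry for 28 of 34 members.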

Additional observations from a re-analysis of the deposited data

How the results depend on the processing

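No imprinted gene was called lower in any of the 13 alternatives. The members called higher, 7 in the reported test, ranged from 0 to 6 with 1 library left out, were 5 to 8 under the other alternatives, and were 0 with no filter on low counts and 1, Kcnq1ot1, with a floor of 1 CPM in all libraries. Dio3, Meg3, Peg12 and Impact were not tested at equal depth, where AY036118 was left out and every library thinned to 554572 counts. Over the whole table, 1943 genes were higher and 313 lower; these became 0 and 0 with no filter, 230 and 45 with 1 CPM in all libraries, 732 and 59 at equal depth, 1257 higher with the receptor level subtracted and 94 lower with the replicate block. With 1 library left out, where the lone library of a group is assumed to vary like the pair of the other, they ranged from 0 to 2517 higher and from 0 to 1208 lower. The other lists had 15 higher and 0 lower, which became 0 higher with no filter, 3 with 1 CPM in all libraries and 9 at equal depth, 1 lower with library totals, and with 1 library left out from 0 to 18 higher and from 0 to 2 lower. With no filter, 9 members and 4255 genes still had an unadjusted p under 0.05. The numbers of the replicates share no known source and same-numbered libraries deviated with a correlation of -0.0299, so the replicate block, which called 6 members, is only a check. With no filter Impact reversed to -0.10 and Zrsr1 to -0.13, and with 1 library left out Impact ranged from -2.52 to 1.65 and Zrsr1 from -0.049 to 1.02; the cause was not tested. Peg12 lost its call in 9 of the 10 alternatives that tested it. The depth of spermidine replicate 1 limits genes with few counts, and in genes with few own bases no level can be read.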
